A study of Mus musculus with 6 samples.

Results

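The 10 genes described here encode proteins that take up or bind fatty acids and lipoproteins, and they were found by symbol among the 24015 genes counted in every sample. *Cd36* was chosen by its measured level, which was higher in the mutants than in the controls of this experiment, so its difference between genotypes is given as a description and without a test. The other 9 genes, *Lpl*, *Fabp3*, *Fabp5*, *Fabp7*, *Slc27a1*, *Slc27a4*, *Scarb1*, *Vldlr* and *Lrp1*, were named for their function. Their choice was made with earlier results of these data known. Transcripts were sequenced from the microdissected arcuate nucleus (ARC) of adult females, and all of them were homozygous for a floxed *Esr1* allele (Esr1fl/fl). The labels name a mixed CD-1, 129P2 and C57BL/6 background, whereas the paper names only CD-1 and 129P2 for this line. The 3 controls carried no Cre. The 3 mutants (Esr1fl/fl;Nkx2-1-Cre) also carried Cre driven from *Nkx2-1*, which deletes the receptor ERα across the medial basal hypothalamus, the ventromedial nucleus included, and not in a single type of neuron. The labels name no treatment in either genotype.

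Free fatty acids enter cells with the help of the scavenger receptor CD36 and of the SLC27 transport proteins, which also attach coenzyme A to them. Inside the cell they are carried by small fatty acid binding proteins (FABPs). Fatty acids held in lipoprotein particles are first released by lipoprotein lipase or taken in with the particle by receptors such as VLDLR and LRP1. In the hypothalamus this machinery is known for sensing circulating lipids, for supplying glia and neurons with fatty acids and, through VLDLR and LRP1, for receiving apolipoprotein E particles made by astrocytes.

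Each sample held between 11792440 and 17877137 counts on genes, and 15236 genes passed the filter on low counts, all 10 uptake genes among them. Levels are given as CPM, the count of a gene as a share of its library, after TMM normalization, a scaling that corrects for differences in library composition. *Esr1* was between 48.5 and 64.5 CPM in controls and between 7.06 and 11.8 CPM in mutants. The ARC peptide genes *Agrp* and *Pomc* were at 26.2 CPM or more and at 145 CPM or more in all 6 libraries. Control replicate 2 stood apart in its marker levels. Its summed level of 10 genes of the pars tuberalis and pituitary was 63.6 CPM, against 777 to 1175 CPM in the other 5 libraries, and results for the uptake genes are therefore also given without it. In bulk tissue, fewer cells of a type and less RNA per cell cannot be told apart.

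In the GENCODE annotation of NCBIM37, *Cd36* occupies bases 17287508 to 17394777 of chromosome 5 and is read from the minus strand, with 4 protein-coding transcripts that begin at 3 different start sites. The counts do not separate these transcripts. The RefSeq promoters used here hold 1 start for the gene, on build GRCm38.p6, so not all of the 3 start sites were searched. The 250 bases before that start are shown because ERα binds DNA, either at a palindrome (GGTCA, any 3 bases, TGACC) or at the single hexamer AGGTCA. *Cd36* is also a known target of the PPAR receptors. These bind a direct repeat of that hexamer with 1 base between the copies. The region is chr5:17835897-17836146, read 5′ to 3′ on the minus strand, and the capitals mark the 1 match to the hexamer, which is on the opposite strand of the printed sequence.
Cd36: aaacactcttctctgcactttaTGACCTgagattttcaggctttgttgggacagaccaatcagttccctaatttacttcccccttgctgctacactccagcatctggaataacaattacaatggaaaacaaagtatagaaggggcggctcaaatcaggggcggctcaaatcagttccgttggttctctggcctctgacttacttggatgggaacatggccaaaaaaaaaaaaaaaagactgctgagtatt

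In the 300 bases that the RefSeq table gives per start, 250 before and 50 after it, neither strand at *Cd36* matched the palindrome or the direct repeat. The palindrome occurred in 0.07% of the 32851 promoters of the table and the direct repeat in 0.0396%, whereas the hexamer, which is contained in the direct repeat, occurred in 16.3%. Promoters were listed for 7 of the 10 genes, and not for *Lpl*, *Fabp5* and *Scarb1*. Among the 7, the hexamer was found at *Cd36* and *Fabp7*. These matches of letters describe the windows searched and nothing about binding.

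*Cd36*, the scavenger receptor for long-chain fatty acids and oxidized lipoproteins, measured 1.27, 0.931 and 2.22 CPM in control replicates 1, 2 and 3. The mutant replicates measured 12.9, 10.7 and 10.6 CPM. These levels came from 19, 16 and 31 reads in the controls and from 157, 171 and 159 reads in the mutants. All 3 mutants were far above all 3 controls, and the lowest mutant was at 4.76 times the level of the highest control. The mutants lay close together, with a ratio of highest to lowest of 1.22, and the controls spread more widely, with a ratio of 2.39. Counting error is wide at the control depths, since the exact 95% Poisson interval of the 16 reads of control replicate 2 runs from 9.15 to 26.0 reads. Such intervals cover the counting error of reads only. Reads of amplified cDNA that carry no molecular identifiers do not each stand for 1 molecule, so the intervals can be too narrow for molecules.

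The fitted log2 fold change of *Cd36* was 2.97 (standard error 0.29), which is 7.81-fold. Only 5 of the 15236 tested genes had a larger positive value. Without control replicate 2 it was 2.71 (standard error 0.27), and leaving out each of the 6 samples in turn gave values from 2.71 to 3.37. The mean level moved from the 9.85 percentile of the tested genes in controls to the 37.9 percentile in mutants, so that *Cd36* remained below most expressed genes of the ARC in both genotypes.

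**Figure D1:**
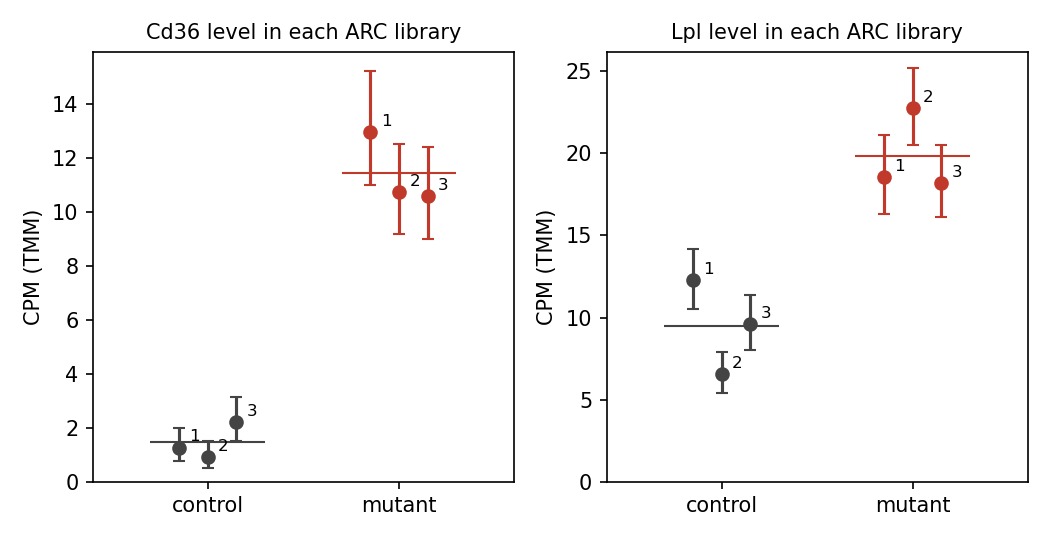
Level of *Cd36* and *Lpl* in each ARC library, in CPM after TMM normalization. Points are single females labelled by replicate number, vertical bars are exact 95% Poisson intervals of the read count and horizontal lines are genotype means. The mutants lie between 10.6 and 12.9 CPM for *Cd36* and between 18.2 and 22.7 CPM for *Lpl*, above all controls.

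*Lpl* encodes lipoprotein lipase, the secreted enzyme that frees fatty acids from triglyceride-rich lipoproteins, and occupies bases 71404390 to 71431347 of chromosome 8, plus strand. The levels of control replicates 1, 2 and 3 were 12.3, 6.57 and 9.61 CPM, and those of the mutant replicates were 18.6, 22.7 and 18.2 CPM. The genotypes did not overlap, but the lowest mutant was only 1.48 times the highest control. The log2 fold change was 1.07 (standard error 0.21), with a 95% interval from 1.51-fold to 2.93-fold, and it did not pass the test over all genes (adjusted p = 0.103, edgeR's quasi-likelihood test with Benjamini-Hochberg adjustment). The call depended on the test and on the filter. With DESeq2 the adjusted p was 0.00111, and with edgeR on every gene that had 1 count or more in some sample it was 0.0159. Control replicate 2, which stood apart in its pars tuberalis and pituitary markers, had the lowest level, and leaving it out gave a log2 fold change of 0.86 with a standard error of 0.17 (edgeR, adjusted p = 0.0779).

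None of the 9 genes named for their function passed the threshold of 0.05 on the adjusted p in edgeR's quasi-likelihood test, against 0.118% of all tested genes, 0.0591% higher and 0.0591% lower in mutants. Before adjustment 1 of the 9, *Lpl*, had a p under 0.05, against 8.85% of all tested genes, 4.84% higher and 4.01% lower in mutants. DESeq2 called 1 of the 9, again *Lpl*, against 1.27% of the genes it tested, 0.643% of them higher in mutants. Limma voom called none of the 9, against 0.0919% of all tested genes, with 1 at an unadjusted p under 0.05, against 9.33%. EdgeR with the replicate number as a block also called none, against 0.807%. *Lpl* was also the 1 gene of the 9 whose genotypes did not overlap, and 7.88% of all tested genes were higher in every mutant than in every control. These counts are of genes chosen with earlier results of these data known. Apart from *Cd36* and *Lpl*, the fold changes of the other 8 genes were small. Their log2 fold changes ran from -0.12 to 0.26, and the lowest adjusted p among them was 0.698 (edgeR). All their 95% intervals lay between 0.607-fold and 1.55-fold, and none reached a 2-fold difference. When control replicate 2 was omitted, the log2 fold changes of the 8 genes ran from -0.13 for *Fabp5* to 0.31 for *Scarb1*, that of *Lrp1* turned from -0.066 to 0.030, and the lowest adjusted p, that of *Slc27a1*, was 0.646 (edgeR).

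**Figure D2:**
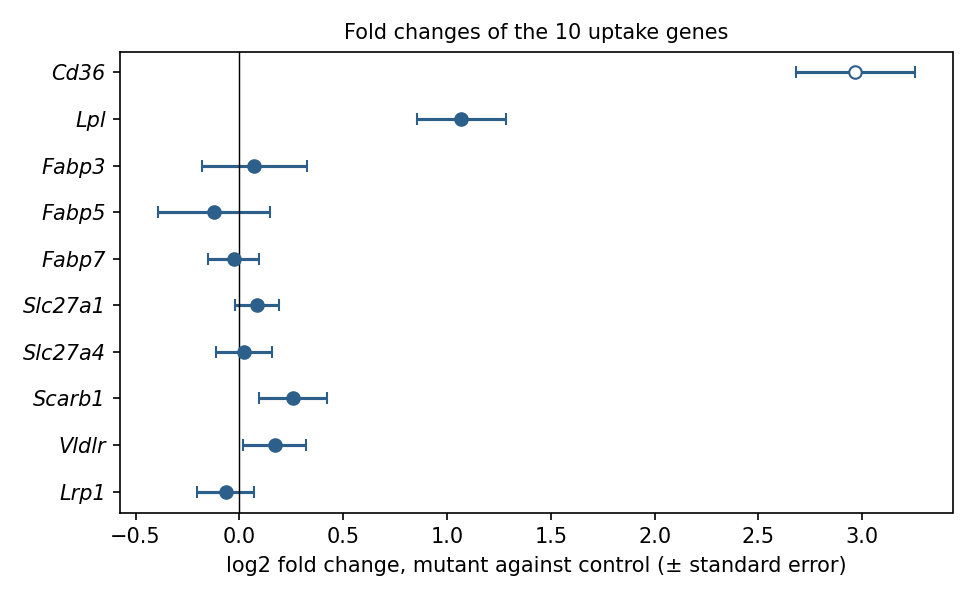
Fitted log2 fold changes of the 10 uptake genes, mutant against control, with edgeR's standard errors as bars (n = 3 per genotype). The open point is *Cd36*, at 2.97, which was chosen for this difference. *Lpl* lies at 1.07, and the other 8 genes lie between -0.12 and 0.26.

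Among the FABPs, *Fabp7*, the brain form that astrocytes, tanycytes and other radial glia-like cells contain, had control levels of 63.2, 54.1 and 48.1 CPM and mutant levels of 60.9, 49.5 and 52.0 CPM. The ranges overlapped almost fully, and the log2 fold change was -0.028 with a 95% interval from 0.814-fold to 1.18-fold. The heart form *Fabp3*, which neurons also contain, was between 3.51 and 4.13 CPM in controls and between 3.05 and 5.21 CPM in mutants. *Fabp5*, the epidermal form, which carries fatty acids in glia and at the blood-brain barrier, was between 3.02 and 4.45 CPM in controls and between 2.60 and 4.21 CPM in mutants. Both low genes gave wide intervals, from 0.712-fold to 1.55-fold for *Fabp3* and from 0.607-fold to 1.39-fold for *Fabp5*. Their counts carry 2 further limits. The annotation lists the pseudogenes *Fabp3-ps1* and *Fabp5l2*, with which reads may be shared, and the exons of *Fabp3* overlap those of *Zcchc17* and *Gm10570* on the other strand by 81 and 80 bases. Reads in that overlap cannot be assigned without strand, and the strand setting of the counting is not given in the sources used here.

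The transport proteins were as level as the FABPs. *Slc27a1* (FATP1) had control levels of 58.9, 76.8 and 62.9 CPM and mutant levels of 66.7, 71.8 and 72.1 CPM, a log2 fold change of 0.085 (standard error 0.11, 95% interval 0.898-fold to 1.25-fold). *Slc27a4* (FATP4) was at 29.1, 28.5 and 20.9 CPM in the controls. In the mutants it lay between 26.1 and 26.9 CPM, inside the range of the controls, and its log2 fold change was 0.021 (standard error 0.13). All 3 mutant values of both transporters thus fell within the spread of the controls.

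Of the receptors, *Lrp1*, a large endocytic receptor for apolipoprotein E and many other ligands, had control levels of 453, 615 and 568 CPM and mutant levels of 438, 541 and 584 CPM. Its log2 fold change was -0.066 (standard error 0.14, 95% interval 0.771-fold to 1.18-fold). *Vldlr*, the very low density lipoprotein receptor, which also binds reelin, had control levels of 130, 181 and 158 CPM and mutant levels of 144, 180 and 205 CPM. The genotypes overlapped, and the log2 fold change was 0.17 (standard error 0.15). *Scarb1*, the high density lipoprotein receptor and the relative of *Cd36* in the class B scavenger receptors, was at 13.3, 13.6 and 11.2 CPM in the controls. In the mutants it was at 18.6, 13.8 and 13.3 CPM, and mutant replicate 1 alone stood above the others. Its log2 fold change of 0.26 (standard error 0.16, 95% interval 0.929-fold to 1.54-fold) had an adjusted p of 0.698 in edgeR's test.

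To compare levels between genes, CPM was divided by the length of the longest protein-coding transcript in kilobases (RPKM). In controls *Fabp7* came first at 62.6 ± 8.65 RPKM (SD, n = 3), followed by *Lrp1* at 36.6 ± 5.59 RPKM. *Slc27a1* and *Vldlr* came next, at 23.7 ± 3.37 and 19.6 ± 3.17 RPKM, and their ranges overlapped. A second step down led to *Slc27a4*, *Scarb1*, *Fabp3* and *Fabp5*, which lay between 3.76 and 6.45 RPKM on average and overlapped from each gene to the next. *Lpl* at 2.30 ± 0.692 RPKM and *Cd36* at 0.414 ± 0.188 RPKM were last. In mutants the order of the upper 7 genes was the same. *Lpl* stood at 4.82 ± 0.615 RPKM, within the range of *Fabp3*, and *Cd36* at 3.21 ± 0.371 RPKM, within the range of *Fabp5*. The transcript lengths are those of the annotation and were not measured in this tissue.

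**Figure D3:**
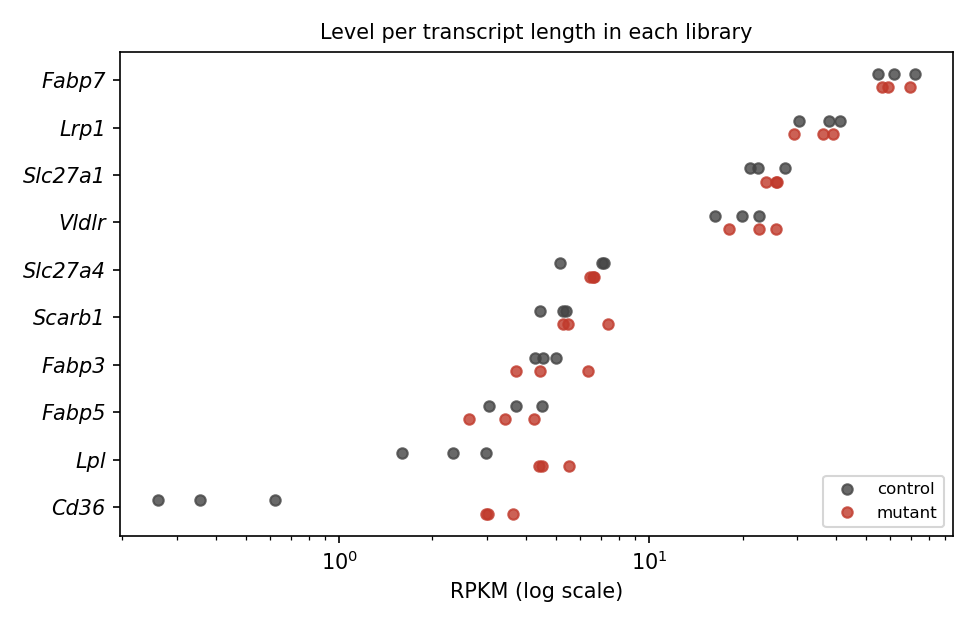
Level of each uptake gene per kilobase of its longest protein-coding transcript, in RPKM on a log scale, with controls as grey points and mutants as red points. *Fabp7* leads in every library, and *Cd36* moves from 0.414 RPKM on average in controls, well below *Lpl*, to 3.21 RPKM in mutants, near *Fabp5*.

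A wider set of 132 genes of fatty acid and lipoprotein handling, in 10 lists, was examined in the same fit, and 108 of them were tested. None passed the threshold in edgeR's test. At an unadjusted p under 0.05 there were 12, which is 11.1% of the set against 8.85% of all tested genes, with 10 higher and 2 lower in the mutants. DESeq2 called 3 of the 106 genes of the set that it tested, *Thbs2*, *Lyn* and *Rxrg*, against 1.27% of all genes it tested. Limma voom called none, against 0.0919% of all tested genes, and had 13 of 108 at an unadjusted p under 0.05, against 9.33%. The median log2 fold change of the set was 0.11, and that of all tested genes was 0.0036. The genotypes did not overlap for 19 of the 108 genes, or 17.6%, against 15.8% of all tested genes. With control replicate 2 omitted, edgeR called 0 of 110 tested genes of the set, against 0.296% of all genes in that fit, and had 11 at an unadjusted p under 0.05, against 7.73%.

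The smallest p of the set was found among the ligands and signalling partners of CD36. *Thbs2*, encoding thrombospondin 2, a secreted ligand of CD36, had control levels of 10.7, 8.49 and 8.54 CPM and mutant levels of 13.9, 18.1 and 16.9 CPM, and all mutants were above all controls. Its log2 fold change was 0.82 with a standard error of 0.16, and the adjusted p was 0.0884 in edgeR and 0.00803 in DESeq2. *Lyn*, a Src family kinase that signals from CD36 and is abundant in myeloid cells, had control levels of 10.2, 7.97 and 8.32 CPM and mutant levels of 20.3, 12.7 and 13.9 CPM. The genotypes did not overlap, and the log2 fold change was 0.82 with a standard error of 0.20, and the adjusted p was 0.195 in edgeR and 0.0395 in DESeq2. Of the 13 tested partners, these were the 2 with an unadjusted p under 0.05, or 15.4% against 8.85% of all tested genes. *Thbs1*, the other thrombospondin that binds CD36, overlapped between genotypes, with a log2 fold change of 0.094.

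The PPAR receptors bind fatty acids and act on DNA together with the retinoid X receptors. *Rxrg*, encoding retinoid X receptor gamma, had control levels of 14.5, 17.5 and 14.8 CPM and mutant levels of 6.52, 9.36 and 10.6 CPM, and all mutants lay below all controls. Its log2 fold change was -0.82 with a standard error of 0.19, and the adjusted p was 0.163 in edgeR and 0.0209 in DESeq2. *Pparg*, the PPAR best known from fat cells and macrophages, had control levels of 0.603, 0.989 and 0.717 CPM and mutant levels of 1.32, 1.70 and 1.67 CPM. All mutants were above all controls, but the gene was near the lower limit of detection and its adjusted p was 0.453 (edgeR). *Ppara* and *Ppard* had log2 fold changes of -0.091 and 0.14 and overlapped between genotypes. Of 12 tested PPAR target genes, 2 were higher, *Cpt1a* among them, and *Ucp2*, encoding a mitochondrial uncoupling protein, was lower at an unadjusted p under 0.05, which is 25% against 8.85% of all tested genes. The lowest adjusted p of the 12, that of *Ucp2*, was 0.394 (edgeR). *Plin2*, *Angptl4* and *Pdk4*, further genes that PPARs activate, overlapped between genotypes, with log2 fold changes of 0.12, 0.20 and -0.26.

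In fatty acid oxidation, 3 of 20 tested genes had an unadjusted p under 0.05, against 8.85% of all tested genes, all of them higher in mutants. *Cpt1a*, whose product admits long-chain fatty acids to mitochondria, had control levels of 60.7, 39.2 and 52.8 CPM and mutant levels of 70.4, 68.2 and 63.0 CPM (log2 fold change 0.40, standard error 0.15, adjusted p = 0.442, edgeR). Its lowest value was again that of control replicate 2. *Eci1*, an isomerase for unsaturated fatty acids, had a log2 fold change of 0.46. With that library omitted, the log2 fold changes of *Cpt1a* and *Eci1* were 0.24 and 0.42, with unadjusted p of 0.0399 and 0.0667 in edgeR's test. None of the 8 tested acyl-CoA synthetases had an unadjusted p under 0.05, and their log2 fold changes lay between -0.12 and 0.11. None of the 14 tested lipid droplet genes and none of the 10 tested apolipoprotein and export genes did either.

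Among the other lipoprotein receptors, 4 of 14 tested genes had an unadjusted p under 0.05, namely *Sorl1*, *Lrp2*, *Cxcl16* and *Lrp10*, which is 28.6% against 8.85% of all tested genes. All 4 had positive log2 fold changes, of 0.22, 0.43, 0.55 and 0.24, and their lowest adjusted p was 0.453 (edgeR). With control replicate 2 omitted, *Sorl1* had an unadjusted p of 0.0073 in edgeR's test, and those of *Lrp2*, *Cxcl16* and *Lrp10* were 0.126, 0.0987 and 0.167. The apolipoprotein E receptor *Lrp8* had a log2 fold change of 0.0013. Of the partners of lipoprotein lipase, the folding factors *Lmf1* and *Lmf2* had log2 fold changes of -0.19 and -0.0036. The capillary anchor of the enzyme, *Gpihbp1*, and its activator *Apoc2* drew 36 and 11 reads over all 6 libraries and were not tested. Of the 13 other FABPs and transporters, 5 were tested. *Fabp4*, the FABP of fat cells and macrophages, had 36 reads in all and was not among them.

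**Figure D4:**
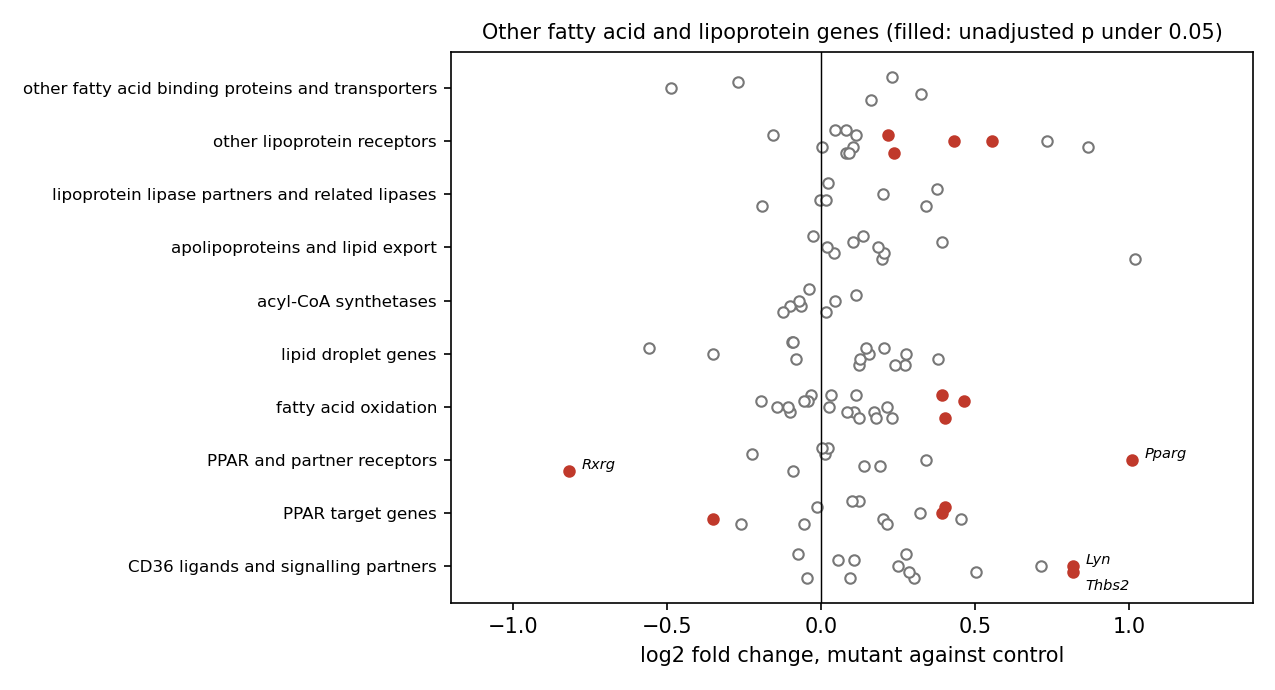
Fitted log2 fold changes of the 108 tested genes of the wider set, by list, with 1 point per gene and genes of 2 lists shown in both. Filled points had an unadjusted p under 0.05 in edgeR's test. Among the filled points, *Thbs2*, *Lyn* and *Pparg* lie at the right, at 0.82, 0.82 and 1.01, and *Rxrg* at the left, at -0.82.

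The genes whose pattern over the 6 libraries was most like that of *Cd36* were sought by the root mean square difference between log2 levels, each gene centred on its own mean, among 14474 genes with a mean of at least 1 CPM. This measure follows the size of the difference between genotypes, for which *Cd36* was chosen, and is a description. *Nov*, a secreted matricellular protein of the CCN family, was closest, at a difference of 0.332, with 16.4, 19.3 and 22.6 CPM in the controls and 199, 109 and 116 CPM in the mutants. The next were *Fmo6*, *Trpm1*, *Ccr2*, *Gbp11* and *Siglec1*, at differences from 0.451 to 0.629. *Ccr2*, the chemokine receptor of inflammatory monocytes, was between 0.407 and 1.15 CPM in controls and between 2.86 and 3.14 CPM in mutants. *Siglec1*, a sialic acid receptor of macrophages, was between 0.536 and 0.814 CPM in controls and between 2.13 and 4.08 CPM in mutants. *Fmo6* drew few reads, and its 0.0582 CPM in control replicate 2 lay below the 0.175 CPM that 3 reads give in that library. *Lpl* ranked 60 by this measure, at a difference of 0.98, and the other 8 uptake genes ranked between 2389 and 10783.

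Markers of cell types that the dissection can hold were summed in each library. Of 15 lists, those of microglia and oligodendrocytes did not overlap between genotypes. The 12 microglia markers summed to between 328 and 351 CPM in controls and between 433 and 487 CPM in mutants, a ratio of means of 1.34. Of these 12 genes, 8 were higher in every mutant than in every control, against 7.88% of all tested genes, among them *Ctss*, a lysosomal protease, at 63.7 and 101 CPM on average in controls and mutants. The 11 oligodendrocyte markers summed to between 716 and 1351 CPM in controls and between 1772 and 1908 CPM in mutants, a ratio of 1.88. All 11 were higher in every mutant than in every control, among them *Mbp*, a myelin protein gene, at 273 and 507 CPM on average.

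The ratio of means of *Cd36*, 7.74, was larger than that of any of the 15 sums. Per 100 CPM of microglia markers *Cd36* was between 0.269 and 0.677 CPM in controls and between 2.33 and 2.66 CPM in mutants, and it also stayed apart per unit of the oligodendrocyte, endothelial and tanycyte markers. *Cd36* was chosen for its difference, with the lowest mutant at 4.76 times the highest control. Its comparisons with the sums are therefore descriptions. Per 100 CPM of pars tuberalis and pituitary markers *Cd36* overlapped between genotypes, at 0.108, 1.46 and 0.244 CPM in control replicates 1, 2 and 3 against 1.30, 1.16 and 1.36 CPM in the mutants, and the high control is the replicate 2 whose sum of these markers was low. *Lpl* stayed apart per unit of microglia markers, at 1.90 to 3.49 CPM against 3.81 to 5.25 CPM. Per 100 CPM of oligodendrocyte markers *Lpl* overlapped between genotypes, with a ratio of means of 0.998. Control replicate 2 gave 0.487 CPM, below the mutants, which ran from 0.973 to 1.25 CPM. Replicates 1 and 3 of the controls gave 1.42 and 1.34 CPM, above every mutant. Both the overlap and the ratio near 1 therefore depended on control replicate 2. *Lpl* also overlapped per 100 CPM of pars tuberalis and pituitary markers, at 1.04, 10.3 and 1.05 CPM in the controls against 1.87 to 2.45 CPM in the mutants, with a ratio of means of 0.535. The part of these cell types in either difference was not tested.

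Further sources of *Cd36* transcripts were checked in the same way. The 12 endothelial markers summed to between 122 and 216 CPM in controls and between 188 and 219 CPM in mutants, and the 7 markers of perivascular macrophages to between 13.7 and 20.2 CPM and between 18.0 and 33.6 CPM. Both lists overlapped between genotypes, with ratios of means of 1.15 and 1.38. The lowest sum of each list was that of control replicate 2. Control replicates 1 and 3 had endothelial sums of 216 and 197 CPM, within the range of the mutants. No list was made for monocytes. The 6 markers of the ventromedial nucleus varied widely within each genotype. Their sums ran from 77.9 to 167 CPM in controls and from 77.8 to 216 CPM in mutants, and overlapped. The 7 fat cell markers, *Adipoq* and *Lep* among them, summed to at most 2.39 CPM in any library. Of the 10 blood cell markers, the 4 haemoglobin genes were listed at 0 in every library, although *Alas2* of the same list was counted in all 6. Why they had no reads was not tested, so these zeros do not show that blood was absent. The sum, which rests on the remaining markers, lay between 6.75 and 8.75 CPM in controls and between 7.59 and 10.2 CPM in mutants. The pars tuberalis and pituitary sum was low in control replicate 2 alone, and the *Cd36* difference without that library is given above.

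**Figure D5:**
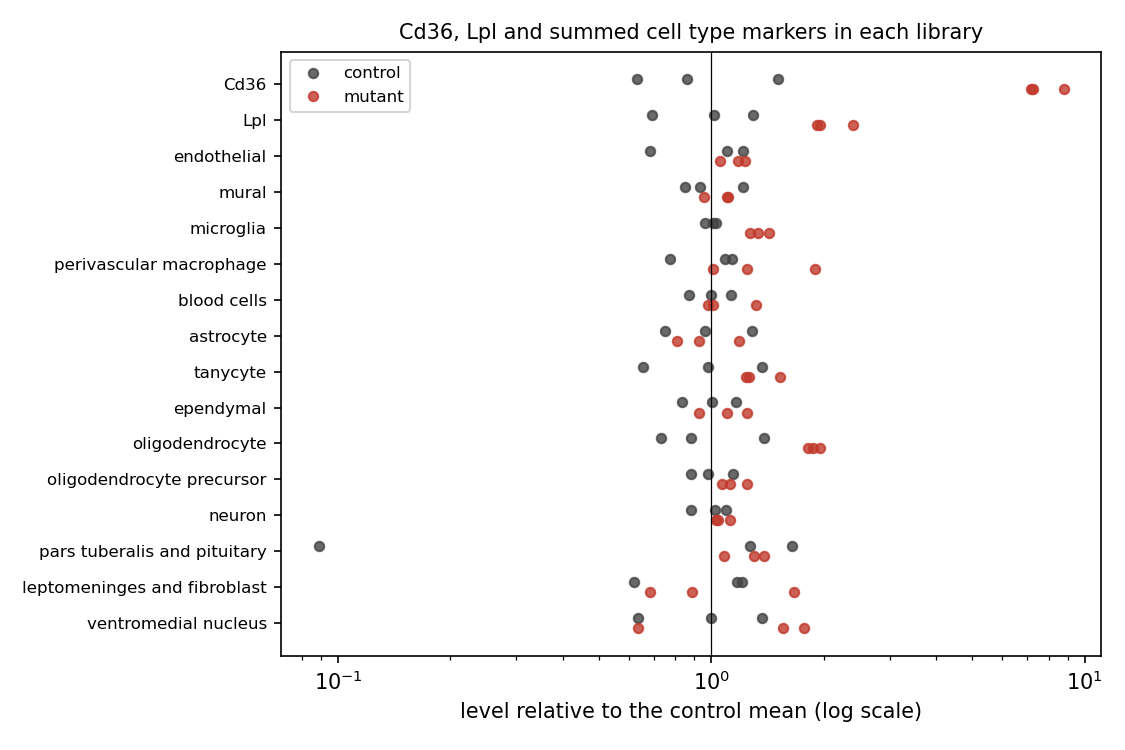
Levels of *Cd36* and *Lpl* and summed levels of cell type markers in each library, relative to the control mean, on a log scale, with controls in grey and mutants in red. Microglia and oligodendrocyte markers separate the genotypes, with ratios of means of 1.34 and 1.88, and the lone low point is the pars tuberalis and pituitary sum of control replicate 2.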

How the data were processed

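ARC RNA from 3 control and 3 mutant females was amplified from 50 ng and sequenced as single-end 50 bp reads. The authors mapped the reads with TopHat2 (version 2.1.0 in the submitters' processing notes), counted them with HTSeq (0.6) and deposited raw counts for 24015 gene symbols. The notes name build mm9, whereas the paper names NCBI37/mm10. Positions are from GENCODE on NCBIM37, matched by symbol, and promoters from RefSeq on GRCm38.p6.

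Samples were grouped by the genotype in their labels. Mutants were compared with controls with R 4.3.3 and edgeR 4.0.16 (quasi-likelihood test with robust dispersions, TMM, default filter, 15236 genes), and p-values were adjusted over all tested genes by the Benjamini-Hochberg method at 0.05. Standard errors and 95% intervals came from that fit, and a prior count of 2 was used for log2 levels. A floor of 3 counts is between 0.175 and 0.248 CPM. Pairs of samples differed by more than sampling noise (chi-square per degree of freedom 6.60 to 29.6), and the tests were checked on simulated counts. Members and lists were chosen with earlier results of these data known. The genes named are the 10 uptake genes, up to 3 of each wider list with the smallest p under 0.05, the 6 genes most like *Cd36* and like *Lpl*, and the 2 most abundant markers of each separated cell type list. Some genes that this rule names are not reported here. Genes that are contrasted with these, and *Lrp10*, were named after their values were seen. DESeq2 1.42.0, the tool of the study, limma voom (limma 3.58.1), RLE normalization, other filters, a replicate block and leaving out each sample were alternatives. Plain CPM was tried for *Cd36*.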

Additional observations from a re-analysis of the deposited data

How the results depend on the processing

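The log2 fold change of *Cd36* lay between 2.71 and 3.37 under all alternatives, and plain CPM gave means of 1.46 and 11.6 CPM against 1.48 and 11.4 CPM. The number of the 9 other uptake genes called was 0 in edgeR's test, and it was 1 with DESeq2 and 1 with a minimum of 1 count in any sample, *Lpl* in both, with log2 fold changes of 1.06 and 1.06. It was 0 with RLE normalization, limma voom, the replicate block, a filter that asked for 10 counts in each library, and every sample left out, where the adjusted p of *Lpl* in edgeR's test ran from 0.0604 to 0.442. The number of wider genes called was 0, and it was 3 with DESeq2, 2 with a minimum of 1 count in any sample (*Thbs2* and *Rxrg*) and 1 with the replicate block (*Lyn*). Over all genes, 18 were called, against 191 with DESeq2, 106 with a minimum of 1 count and 123 with the replicate block. Leaving out each sample gave 7 to 46 genes, with 46 without control replicate 2, 9 without mutant replicate 2 and 7 without mutant replicate 3. The cause was not tested.

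Uptake genes with small differences changed sign when a sample was left out. The log2 fold change of *Fabp3* ran from -0.18 to 0.22 (below 0 without mutant replicate 2), of *Fabp5* from -0.32 to 0.039 (above 0 without replicate 3 of either genotype), of *Fabp7* from -0.12 to 0.079 (above 0 without control replicate 1 or mutant replicate 2), of *Slc27a4* from -0.12 to 0.10 (below 0 without control replicate 3) and of *Lrp1* from -0.18 to 0.045 (above 0 without control replicate 2 or mutant replicate 1). The replicate numbers of the labels are shared by the genotypes, but deviations from the genotype means correlated across genes with r of 0.281, 0.0466 and -0.0026 for the pairs numbered 1, 2 and 3, so the numbers were not taken as pairs. With 3 females per genotype, and 16 to 31 reads of *Cd36* in the controls, counting error limits its control level more than its mutant level.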

Other observations

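By the same measure of likeness, the genes closest to *Lpl* were *Ifitm3*, *Rrm2*, *Car13*, *Erbb3*, *Tmc6* and *Trem2*, at root mean square differences from 0.162 to 0.192 over the 6 libraries. *Ifitm3*, an interferon-induced membrane protein, had levels of 26.7, 15.6 and 25.3 CPM in control replicates 1, 2 and 3, and of 41.2, 41.7 and 36.6 CPM in mutants. *Car13*, a carbonic anhydrase, had control levels of 9.18, 4.48 and 7.67 CPM and mutant levels of 13.1, 13.9 and 10.4 CPM. *Erbb3*, a neuregulin receptor of myelinating glia, was between 1.22 and 2.41 CPM in controls and at 3.22 CPM or more in mutants. *Trem2*, the lipid-sensing receptor of microglia, had control levels of 2.28, 1.45 and 2.01 CPM and mutant levels of 3.30, 3.58 and 3.00 CPM. All 6 genes had their lowest level in control replicate 2 and did not overlap between genotypes. *Lpl* has both traits, so they follow from the choice of genes by likeness to it and are a description. Of all tested genes, 7.88% were higher in every mutant than in every control. None of the 6 passed edgeR's test, with a lowest adjusted p of 0.178, against 0.118% of all tested genes.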
